A study of Nicotiana tabacum with 9 samples.

Results

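This account covers tobacco (Nicotiana tabacum) genes whose domain description contains the letters GRAS, gibberellin or DELLA and not oxoglutarate, and which had a value of 1 or more in at least 3 of the 9 libraries. The word rule matched 367 of the 69500 genes in the deposited table, and 225 of these passed the filter. The letters gras also occur in integrase, in grasp (ATP-grasp and beta-grasp folds) and in foie gras, so 164 of the 225 genes are zinc finger proteins, enzymes, ferredoxins and other proteins with no named link to GRAS or gibberellin. The 61 genes that fit the words in their plant meaning were 4 DELLA genes, 45 further GRAS genes and 12 gibberellin-regulated protein genes, and they are described first. The whole word match held 119 such genes, of which 58 stayed under the filter.

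The RNA came from young leaves of plants in the squaring period (budding), in a study of how NtAN3 acts on leaf size. The genotypes were M21, G27 and NC82, with 3 libraries each. NC82 carries a flue-cured cultivar's name and serves here as the comparator. All 3 share tissue and stage. The labels do not say what change of NtAN3 M21 and G27 carry, what promoter drives it, or whether each line is 1 event, and they give no treatment or plant age.

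GRAS proteins are plant transcription regulators named after GAI, RGA and SCR, and the family includes regulators of root patterning, meristem maintenance, axillary buds and phytochrome signalling. DELLA proteins are the GRAS members that repress growth. When gibberellin binds its GID1 receptor, the complex takes hold of the DELLA domain and the protein is ubiquitinated and degraded, so much of DELLA control lies at the protein level, which RNA does not show. Gibberellin-regulated proteins, called GASA in Arabidopsis and snakins in potato, are small secreted cysteine-rich peptides, several of which respond to gibberellin and some of which are antimicrobial.

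Levels are the authors' normalized expression values, whose unit the header does not name. Summed values lay between 784281 and 790816 in M21, 778233 and 787000 in G27, and 771390 and 790519 in NC82, and relative depths estimated from the lowest genes were 0.79 to 0.89, 0.85 to 1.04 and 0.93 to 1.21. Leaf genes were high throughout, with Rubisco small chains holding 5.28% to 5.65% of the summed value in M21, 5.67% to 5.99% in G27 and 5.25% to 5.66% in NC82. The SS18 family gene Nitab4.5_0007901g0050, from the family that holds AN3, stood at 4.32 to 5.8 in M21, 604.42 to 760.1 in G27 and 0.25 to 0.34 in NC82. On the third principal component, with 11.6% of the variance, M21 replicate 3, G27 replicate 1 and NC82 replicate 1 lay at -16, -21.2 and -22.9, apart from the other libraries at 2.06 to 18.9. In bulk leaf, fewer cells of a type and less RNA per cell cannot be told apart. Members of a family share sequence, and how reads were divided among them in this polyploid genome is not known.

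The 4 DELLA genes differed little among the genotypes, and limma called 0 of them in any comparison. In all, 24.3% of the 33188 genes tested were called in M21 against NC82, 13.9% in G27 against NC82 and 11.9% in M21 against G27, at an adjusted p under 0.05. Before adjustment, 1 of the 4 had a p under 0.05 in M21 against NC82, 0 in G27 against NC82 and 1 in M21 against G27. Of the 33188 genes tested, 11924, 8744 and 8438 had such a p in the same order. The highest DELLA gene, Nitab4.5_0004294g0050, stood at 21.27, 21.25 and 20.93 in M21, 22.92, 27.88 and 22.65 in G27, and 22.4, 24.48 and 23.5 in NC82. All M21 libraries lay under all others, by a margin that did not pass the test. Its log2 change in M21 against NC82 was -0.14, with a 95% interval of -0.33 to 0.04, and that in G27 against NC82 was 0.05, with an interval of -0.13 to 0.24. In M21 against G27 it was -0.20, with an unadjusted interval of -0.38 to -0.01 and a limma adjusted p of 0.17.

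Nitab4.5_0012189g0010 stood at 5.42, 5.52 and 6.03 in M21, 5.51, 5.49 and 5.39 in G27, and 4.73, 5.11 and 4.85 in NC82. Both lines lay above NC82 in every library, yet neither difference was called. The log2 change was 0.17 in M21 against NC82 (limma adjusted p = 0.11) and 0.13 in G27 against NC82 (limma adjusted p = 0.29). The other DELLA genes were low and their ranges overlapped in all 3 comparisons. Nitab4.5_0003278g0010 averaged 3.12 ± 0.332 in M21, 3.32 ± 0.108 in G27 and 3.19 ± 0.387 in NC82 (SD, n = 3 each). Nitab4.5_0005418g0080 averaged 2.69 ± 0.162 in M21, 2.86 ± 0.346 in G27 and 2.81 ± 0.224 in NC82 (SD, n = 3 each). Across the 4 genes and 3 comparisons, the 95% intervals of the log2 changes reached at most -0.38 and 0.34, so larger changes of these RNAs lie outside the intervals, which are not adjusted for the number of genes.

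**Figure D1:**
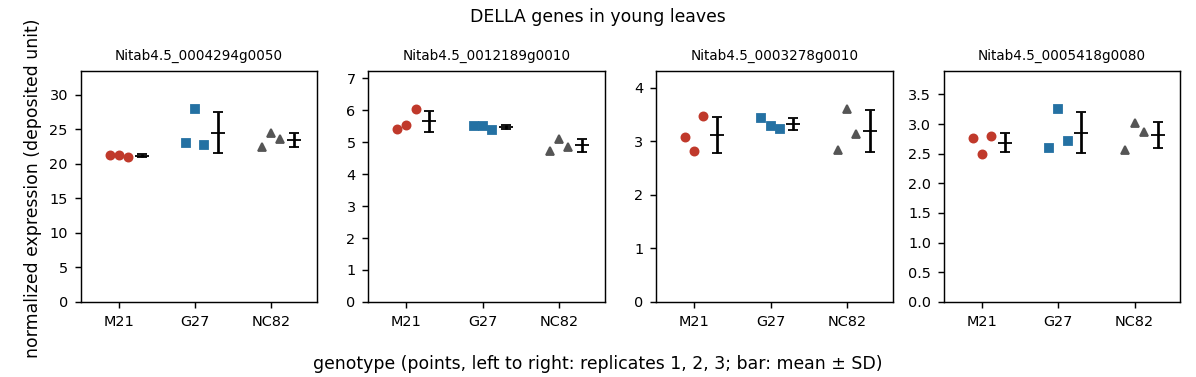
Normalized expression (y axis, deposited unit, from 0) of the 4 DELLA genes in M21, G27 and NC82. Points are libraries and bars are mean ± SD (n = 3); the M21 points of Nitab4.5_0004294g0050 lie at 20.93 to 21.27, under all NC82 points, and no gene was called.

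The 45 further GRAS genes were expressed at low and steady levels. Their means over the 9 libraries lay between 1.17 and 11.8, with a median of 3.83, and 44 of them stayed under 10. The header does not say whether levels are per transcript length, so the order of levels between genes is only that of the deposited values. The highest were Nitab4.5_0003612g0030 at 11.7 ± 0.637 in M21, 11.3 ± 0.923 in G27 and 12.4 ± 0.121 in NC82 (SD, n = 3 each), then Nitab4.5_0000312g0160 at 9.21 ± 0.52, 8.97 ± 0.0723 and 9.90 ± 0.157 in the same order, and Nitab4.5_0000647g0060 at 8.13 ± 0.725, 9.42 ± 1.17 and 7.68 ± 0.366. None of these passed the test in any comparison. Summed over the 45 genes, the level was 184.6 to 201.4 in M21, 173.4 to 197 in G27 and 178.7 to 189.8 in NC82, and these ranges overlap. The descriptions name no subfamily, so roles such as SCARECROW or HAIRY MERISTEM cannot be given to single genes.

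In M21 against NC82, 4 of the 45 GRAS genes rose and 3 fell, which is 15.6% of them, against 24.3% of all tested genes. Their median log2 change was 0.09, against 0.03 for all tested genes. Of the 45, 43 moved by less than 0.5, as did 28941 of all 33188 tested genes. These changes are on the log2 of value plus 1, which makes changes of low genes such as these smaller. For Nitab4.5_0001290g0160 the change was 0.49, while its M21 mean was 1.76 times that of NC82. In G27 against NC82, 2 rose and 3 fell, or 11.1% against 13.9%, with a median of 0.04 against 0.05. In M21 against G27, 2 were higher and 0 lower, or 4.44% against 11.9%, with medians of 0.04 and -0.01. Groups did not overlap for 16, 12 and 9 of the 45 in these comparisons, or 35.6%, 26.7% and 20%, where 40.3%, 30.6% and 28.6% of all tested genes had ranges apart. In each comparison the GRAS genes were thus called at a share near or under that of all genes. Called in no comparison were 36 of the 45, a count for which the share of all genes was not worked out.

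The GRAS gene with the smallest p was Nitab4.5_0001735g0150. It stood at 6.3, 6.55 and 6.38 in M21, 5.78, 6.72 and 6.1 in G27, and 3.64, 3.99 and 3.92 in NC82. Every library of both lines lay above every NC82 library. It rose by 0.61 on the log2 scale (SE 0.078, limma adjusted p = 2.5e-04) in M21 and by 0.57 (SE 0.078, limma adjusted p = 5.6e-04) in G27, both against the same NC82 libraries, and its means were 1.66 and 1.61 times that of NC82. M21 and G27 did not overlap with NC82 but overlapped with each other, with a difference of 0.04 and an interval of -0.13 to 0.22. Leaving out any 1 library kept both calls, with adjusted p up to 0.0017 and 0.003.

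A lower gene with the same direction in both lines was Nitab4.5_0006365g0090, at 1.58, 1.68 and 1.9 in M21, 2.16, 1.66 and 1.91 in G27, and 0.95, 1.05 and 1.12 in NC82. It rose by 0.41 in M21 (SE 0.103, limma adjusted p = 0.014) and by 0.51 in G27 (SE 0.103, limma adjusted p = 0.0068). The M21 call was lost without M21 replicate 3 (limma adjusted p = 0.055), and both calls were lost without the 3 libraries that stand apart (0.12 and 0.087). Its neighbour by identifier, the GRAS gene Nitab4.5_0006365g0070, averaged 0.00222 over the 9 libraries. In all, 8 of the GRAS genes matched shared 4 scaffold numbers in pairs, and in 2 of these pairs both genes passed the filter.

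Other GRAS genes rose in M21 by the test. Nitab4.5_0002877g0010 stood at 7.49, 6.24 and 7.96 in M21, 6.25, 5.79 and 5.47 in G27, and 5.43, 5.02 and 4.96 in NC82, so that G27 lay between the others and overlapped with M21. It rose by 0.42 in M21 against NC82 (SE 0.094, limma adjusted p = 0.0078), and in G27 the change was 0.16 (limma adjusted p = 0.34). Nitab4.5_0001290g0160 averaged 2.02 ± 0.342 in M21, 1.36 ± 0.296 in G27 and 1.15 ± 0.224 in NC82 (SD, n = 3 each), and rose by 0.49 in M21 against NC82 (SE 0.134, limma adjusted p = 0.021). This last call was lost without M21 replicate 1 or NC82 replicate 3 (limma adjusted p = 0.086 to 0.09). Neither gene was called in M21 against G27 (limma adjusted p = 0.1 and 0.12).

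Of the GRAS genes that fell, Nitab4.5_0000651g0080 stood at 2.93, 2.83 and 3.87 in M21, 3.77, 3.39 and 3.36 in G27, and 5.72, 4.52 and 4.7 in NC82. Both lines lay under NC82 in every library. It fell by 0.51 on the log2 scale in M21 (SE 0.114, limma adjusted p = 0.0078) and by 0.40 in G27 (SE 0.114, limma adjusted p = 0.038). The G27 call was lost without any 1 library other than M21 replicate 2 or 3 (limma adjusted p = 0.052 to 0.12), and without the 3 libraries that stand apart (0.066). Nitab4.5_0014315g0010 stood at 1.37, 1.71 and 1.6 in M21, 1.11, 1.4 and 1.25 in G27, and 2.19, 2.37 and 2.42 in NC82, again with NC82 apart from both lines. It fell by 0.38 in M21 (SE 0.0986, limma adjusted p = 0.017) and by 0.56 in G27 (SE 0.0986, limma adjusted p = 0.0028). The M21 call was lost without M21 replicate 1 or NC82 replicate 2 or 3 (limma adjusted p = 0.061 to 0.072), and without the 3 libraries that stand apart (0.059).

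The third GRAS gene that fell, Nitab4.5_0000461g0080, is among the 4 highest of the class. It stood at 7.51, 6.67 and 7.14 in M21, 6.98, 6.84 and 5.74 in G27, and 8.12, 9.18 and 9.41 in NC82, with no overlap between NC82 and either line. It fell by 0.29 in M21 (SE 0.0915, limma adjusted p = 0.042) and by 0.40 in G27 (SE 0.0915, limma adjusted p = 0.014). The M21 call was lost without any M21 replicate or without NC82 replicate 2 or 3 (limma adjusted p = 0.064 to 0.14), and with a replicate block (0.069). It was also lost without the 3 libraries that stand apart (limma adjusted p = 0.057). The G27 call was lost without G27 replicate 3 or NC82 replicate 2 or 3 (limma adjusted p = 0.054 to 0.06).

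Between the lines, Nitab4.5_0004725g0010 and Nitab4.5_0006109g0070 were the GRAS genes called, both higher in M21. Nitab4.5_0004725g0010 stood at 3.11, 2.89 and 3.53 in M21 and 2.29, 2.11 and 2.25 in G27, with 2.46, 2.81 and 2.53 in NC82. Nitab4.5_0006109g0070 stood at 2.98, 2.84 and 3.18 in M21 and 2.12, 2.2 and 2.06 in G27, with 2.22, 2.5 and 2.53 in NC82. In both genes M21 lay above NC82 and G27 below it, with no overlap among the 3 groups. M21 exceeded G27 by 0.37 (SE 0.0907, limma adjusted p = 0.022) and by 0.35 (SE 0.0849, limma adjusted p = 0.021). Neither gene was called against NC82 in either line (limma adjusted p = 0.076 to 0.4). Leaving out M21 replicate 1 or 3 ended both calls, as did leaving out G27 replicate 2 or 3 for the first gene (limma adjusted p = 0.056 to 0.083) and G27 replicate 1 or 3 for the other (0.055 to 0.076). Both calls also ended without the 3 libraries that stand apart (limma adjusted p = 0.13 and 0.14).

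**Figure D2:**
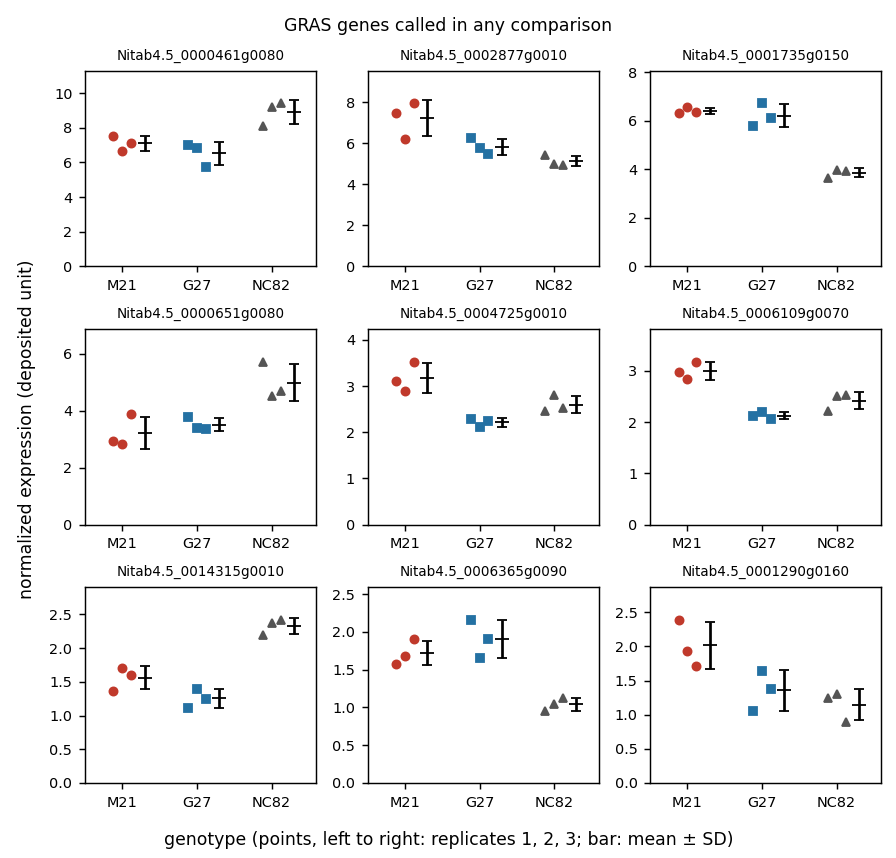
Normalized expression (y axis, deposited unit, from 0) of the 9 GRAS genes called in at least 1 comparison, in M21, G27 and NC82. Points are libraries and bars are mean ± SD (n = 3); NC82 lies under both lines for Nitab4.5_0001735g0150 (3.64 to 3.99) and above both for Nitab4.5_0014315g0010 (2.19 to 2.42).

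Within a group, GRAS genes moved with the library. M21 replicate 2 was the lowest M21 library for 26 of the 45 genes, as it was for 54.4% of all tested genes. G27 replicate 2 was the highest G27 library for 27 of the 45 (60%, against 41.9% of all tested genes), and G27 replicate 3 the lowest for 25 (55.6%, against 44.4%). NC82 replicate 1 was the lowest NC82 library for 25 GRAS genes (55.6%, against 43.4%) and for all 4 DELLA genes. Beyond leaving out libraries, the part of these differences in the calls was not tested.

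The 12 gibberellin-regulated protein genes spanned a far wider range of levels, with means over the 9 libraries from 0.993 to 687.8. Nitab4.5_0002978g0140 alone held 69.5% to 72% of the summed level of the 12 genes in each library. It stood at 680, 627.68 and 749.19 in M21, 832.38, 622 and 772.35 in G27, and 698.06, 626.09 and 582.1 in NC82. The 3 ranges overlap and the gene was not called, with a log2 change of 0.11 (95% interval -0.14 to 0.36) in M21 and 0.22 (-0.03 to 0.47) in G27 against NC82. The summed level of the class, which this gene sets, was 897 to 1040.4 in M21, 889.9 to 1188.1 in G27 and 829.1 to 973.1 in NC82.

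Of the 12, 8 were called in at least 1 comparison, among them Nitab4.5_0000560g0200 at the second highest level. The matching share of all tested genes was not worked out, so this count has no background beside it. In M21 against NC82, 1 of the 12 rose and 3 fell, which is 33.3% against 24.3% of all tested genes, with a median log2 change of 0.14 against 0.03. In G27 against NC82, 3 rose and 0 fell, or 25% against 13.9%, with a median of 0.22 against 0.05. In M21 against G27, 2 were higher and 3 lower, or 41.7% against 11.9%, with a median of -0.35 against -0.01. Ranges did not overlap for 7, 3 and 6 of the 12, or 58.3%, 25% and 50%, where all tested genes gave 40.3%, 30.6% and 28.6%. Replicates also spread more in part of this class, with a median coefficient of variation of 7.96% in M21, 20.5% in G27 and 15.9% in NC82, against 9.52%, 11% and 8.54% for the 45 GRAS genes.

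The member that set M21 most clearly apart was Nitab4.5_0000201g0290. It stood at 7.39, 6.92 and 7.77 in M21, 26.32, 20.29 and 17.23 in G27, and 17.54, 17.1 and 18.58 in NC82. M21 lay far under both other groups, which overlapped with each other. Its M21 mean was 0.415 times that of NC82, a fall of 1.17 on the log2 scale (SE 0.125, limma adjusted p = 8.1e-05), and 0.346 times that of G27, a difference of -1.40 (SE 0.125, limma adjusted p = 1.5e-04). In G27 against NC82 the change was 0.23, with an interval of -0.04 to 0.51 and a limma adjusted p of 0.28. Both M21 calls held with any 1 library left out, with adjusted p up to 7.0e-04 and 0.0014.

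Nitab4.5_0000283g0170 was the member called in all 3 comparisons. It stood at 26.57, 30.17 and 29.25 in M21, 23.86, 20.36 and 21.4 in G27, and 15.4, 13.87 and 16.17 in NC82. The groups followed one another without overlap, M21 highest, G27 next and NC82 lowest. It rose by 0.88 in M21 (SE 0.0861, limma adjusted p = 4.5e-05) and by 0.50 in G27 (SE 0.0861, limma adjusted p = 0.0024) against NC82. M21 exceeded G27 by 0.38 (limma adjusted p = 0.017), a call that ended when replicate 2 or 3 of either line was left out (limma adjusted p = 0.055 to 0.062).

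In G27, the other gibberellin-regulated genes that rose were Nitab4.5_0000560g0200 and Nitab4.5_0000210g0050. Nitab4.5_0000560g0200 stood at 146.2, 105.95 and 139.74 in G27 and 95.66, 93.18 and 90.8 in NC82, with 101.41, 100.53 and 111.8 in M21. G27 lay above NC82 in every library, G27 replicate 2 least so. The rise was 0.47 (SE 0.108, limma adjusted p = 0.013) and was lost without G27 replicate 3 (limma adjusted p = 0.06) and without the 3 libraries that stand apart (0.056). Nitab4.5_0000210g0050 stood at 21.83, 9.39 and 14 in G27 and 4.93, 6.27 and 4.4 in NC82, with 11.1, 10.2 and 4.69 in M21. The G27 libraries differed among themselves by more than the G27 minimum differed from the highest NC82 library. It rose by 1.31 in G27 (SE 0.308, limma adjusted p = 0.015), with a mean 2.9 times that of NC82, and the call was lost without NC82 replicate 3 (limma adjusted p = 0.056). In M21 the change was 0.58, with an interval of -0.10 to 1.26 (limma adjusted p = 0.21), and M21 replicate 3 was within the NC82 range.

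Nitab4.5_0001642g0050 was higher in M21 than in G27, at 26.09, 25.75 and 27.84 in M21 and 17.44, 18.13 and 19.67 in G27. NC82 spread across the gap, at 26.09, 23.81 and 19.03, and neither line was called against it (limma adjusted p = 0.17 and 0.092). The difference between the lines was 0.51 (SE 0.104, limma adjusted p = 0.011) and held with any 1 library left out. Of 2 abundant members near the threshold, Nitab4.5_0007189g0060 averaged 47.3 ± 2.42 in M21, 63.3 ± 12.2 in G27 and 60.5 ± 1.34 in NC82 (SD, n = 3 each), with a limma adjusted p of 0.054 in M21 against NC82. Nitab4.5_0000422g0020, named after its values were seen, averaged 52.6 ± 3.7 in M21, 44.3 ± 8.07 in G27 and 40.3 ± 6.49 in NC82 (SD, n = 3 each), with a limma adjusted p of 0.072 in that comparison.

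The remaining gibberellin-regulated genes were low, and 3 of them were called lower in M21 in at least 1 comparison. All 3 stayed under 1 in every M21 library and passed the filter through the other groups alone, where they are higher, so these calls and the class shares above that include them carry that selection. Nitab4.5_0001286g0050 stood at 0.54, 0.57 and 0.24 in M21, 1.14, 1.67 and 1.01 in G27, and 1.85, 1.23 and 1.66 in NC82. M21 lay under both other groups. It fell by 0.83 in M21 against NC82 (SE 0.152, limma adjusted p = 0.0024) and was lower than G27 by -0.65 (SE 0.152, limma adjusted p = 0.02). The second call ended when M21 replicate 3 or G27 replicate 2 was dropped, with limma adjusted p of 0.066 to 0.069. It also ended without the 3 libraries that stand apart (limma adjusted p = 0.089). Nitab4.5_0006450g0020 was at 0.97 in M21 replicate 1 and listed at 0 in the other M21 libraries, at 0.89, 2.09 and 1.93 in G27, and at 2.69, 4.42 and 1.1 in NC82. It was called lower in M21 against NC82 with a log2 change of -1.47 (SE 0.354, limma adjusted p = 0.011), a call lost without the 3 libraries that stand apart (limma adjusted p = 0.068).

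Nitab4.5_0004707g0070 stood at 0.25, 0 and 0.73 in M21, 2.76, 3.53 and 0.83 in G27, and 1.09, 1.06 and 0.55 in NC82. M21 was called lower than G27 by -1.28 (SE 0.309, limma adjusted p = 0.022). That call ended when replicate 1 or 2 of either line was left out (limma adjusted p = 0.068 to 0.081), and without the 3 libraries that stand apart (0.054). The lowest member, Nitab4.5_0000192g0090, also named after its values were seen, at 0.59, 0.67 and 2.74 in M21, 0.27, 1.87 and 0.86 in G27, and 1.06, 0.88 and 0 in NC82, overlapped in every comparison and was not called. At such levels each value may rest on few reads, and no counts were given.

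**Figure D3:**
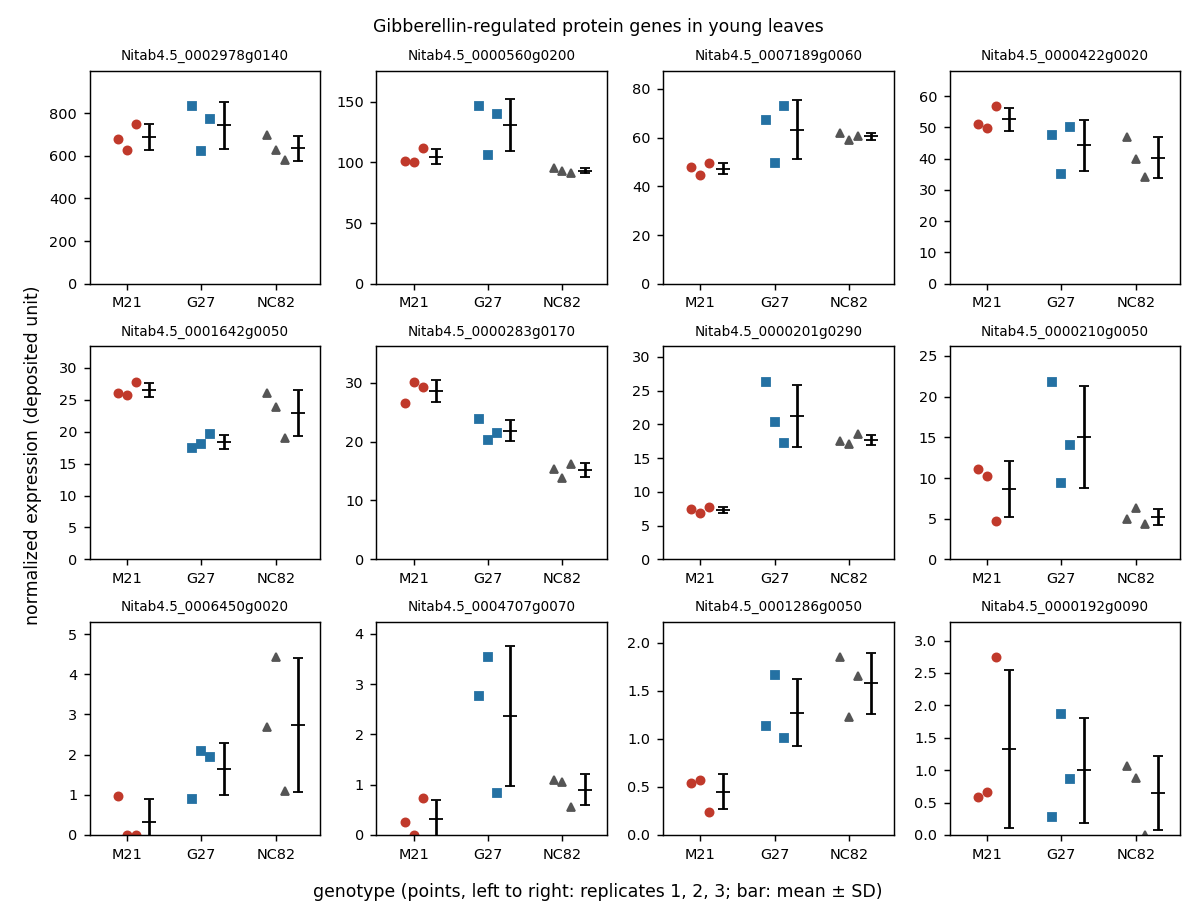
Normalized expression (y axis, deposited unit, from 0) of the 12 gibberellin-regulated protein genes in M21, G27 and NC82, ordered from the highest mean to the lowest. Points are libraries and bars are mean ± SD (n = 3); M21 lies at 6.92 to 7.77 for Nitab4.5_0000201g0290, under both other groups, and for Nitab4.5_0000283g0170 M21 is highest, G27 next and NC82 lowest.

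**Figure D4:**
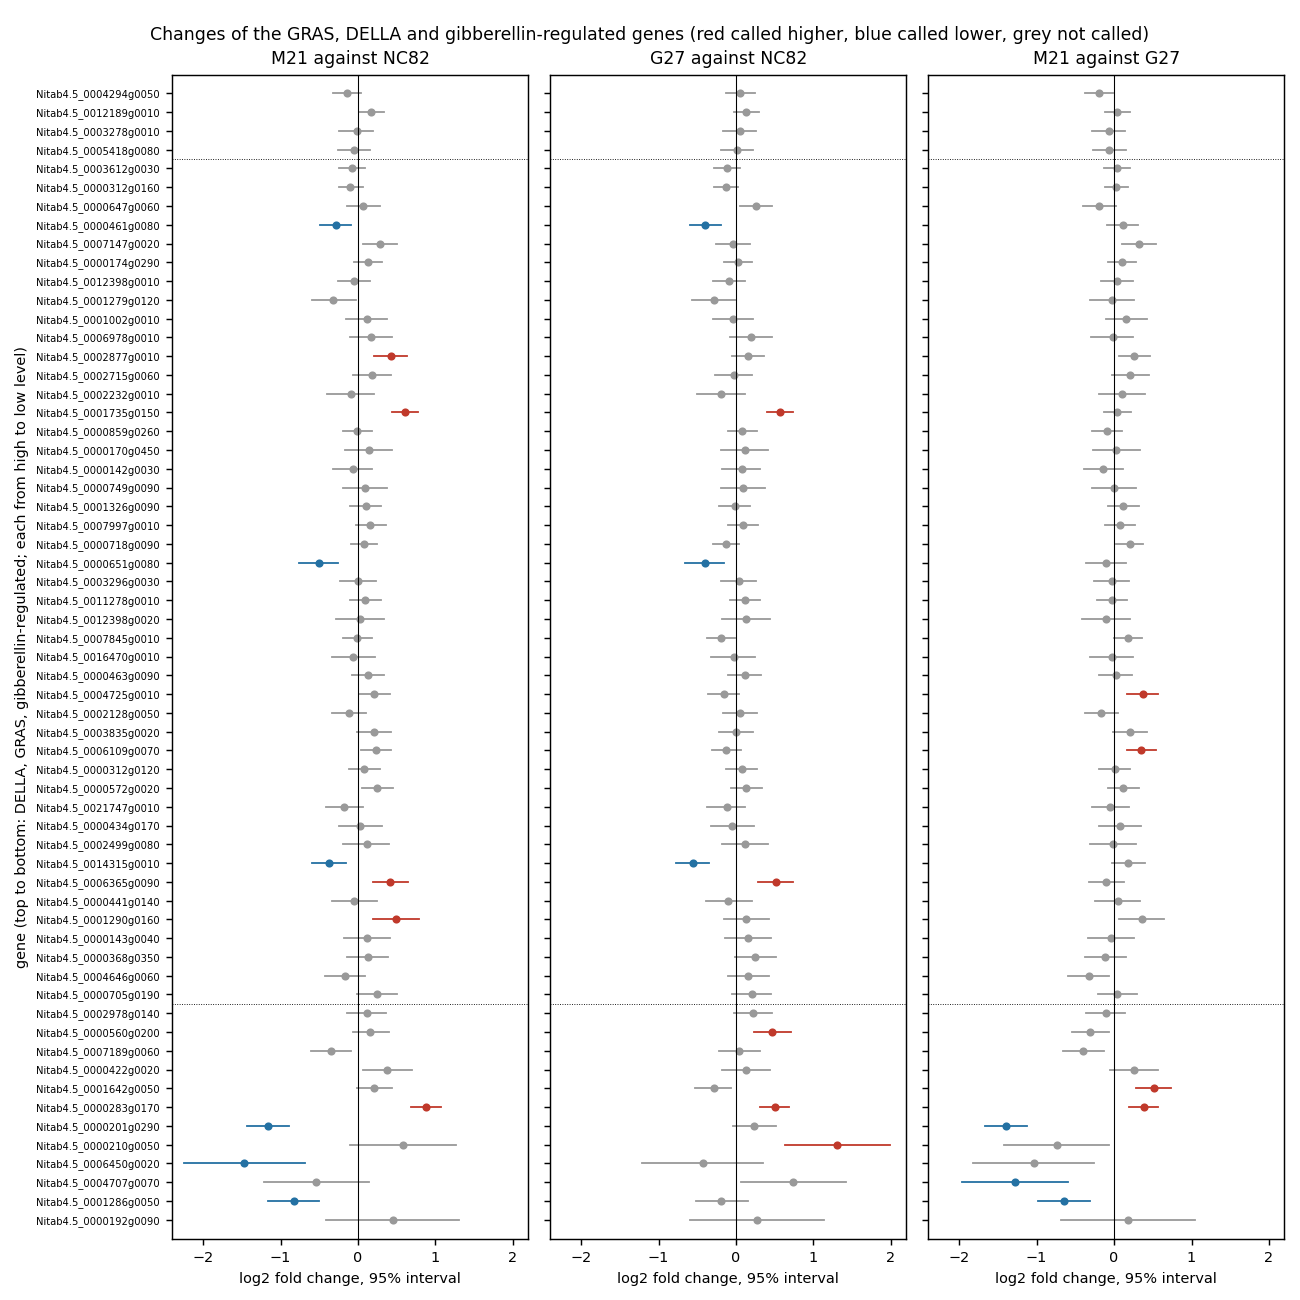
Log2 fold changes with unadjusted 95% intervals (x axis, on the log2 of value plus 1) of the 61 DELLA, GRAS and gibberellin-regulated genes (y axis) in the 3 comparisons. Red genes were called higher, blue lower and grey not called. Most GRAS intervals cross 0, and the widest changes, -1.47 to 1.31, belong to gibberellin-regulated genes. The gene at -1.47 passed the filter only through G27 and NC82, where it is higher.

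Across the 61 genes together, 5 rose and 6 fell in M21 against NC82 (18%), 5 rose and 3 fell in G27 against NC82 (13.1%), and 4 were higher and 3 lower in M21 against G27 (11.5%). Without the 3 libraries that stand apart, 3 fell in M21 against NC82, 3 rose in G27 against NC82, and 2 were higher and 1 lower in M21 against G27. The number that fell in G27 was 1 without G27 replicate 3 or NC82 replicate 2, and the number higher in M21 than in G27 was 2 without M21 replicate 1 and 1 without M21 replicate 3 or G27 replicate 3. Of all tested genes, 13.0% rose and 11.3% fell in M21, 7.87% rose and 6.05% fell in G27, and 5.47% were higher and 6.40% lower in M21 against G27. In M21 against NC82, log2 changes lay between -0.51 and 0.61 for GRAS genes and between -1.47 and 0.88 for gibberellin-regulated genes. The -1.47 is that of Nitab4.5_0006450g0020, which passed the filter only through G27 and NC82, so this end of the range carries that selection. Nitab4.5_0000201g0290, above the filter value in every library, changed by -1.17. In G27 against NC82 they lay between -0.56 and 0.57 for GRAS genes and between -0.43 and 1.31 for gibberellin-regulated genes. Whether the classes differ beyond the levels and replicate spread of their genes was not tested.

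**Figure D5:**
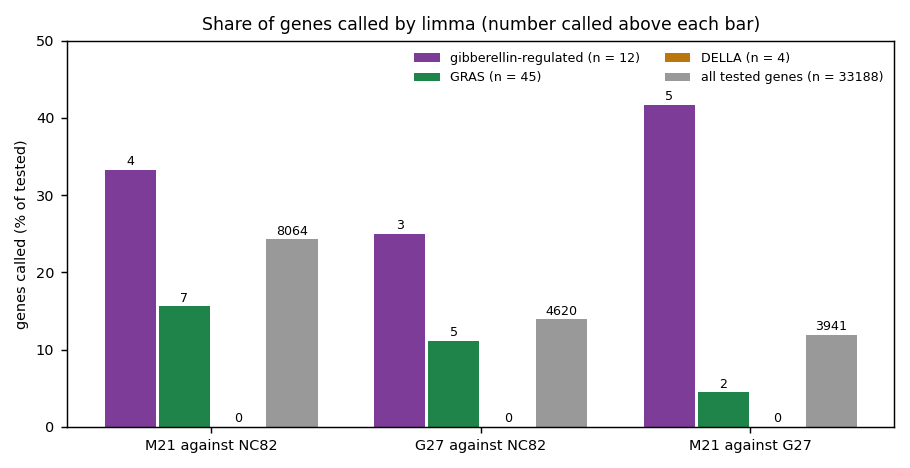
Share of tested genes called by limma (y axis, percent) in each comparison for the 12 gibberellin-regulated, 45 GRAS and 4 DELLA genes and for all 33188 tested genes, with the number called above each bar. The gibberellin-regulated share was 33.3%, 25% and 41.7%, the GRAS share 15.6%, 11.1% and 4.44%, and the DELLA share 0.

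Of the 97 GRAS genes outside the DELLA class, 52 stayed under the filter, 13 of them listed at 0 in all 9 libraries. The highest value of any of the 52 was 1.19, so the GRAS genes not tested were low in these leaves in all 3 genotypes. Of 18 gibberellin-regulated genes, 6 stayed under the filter, with 2 listed at 0 throughout and no value above 1.13. In a fit without the filter, limma called 3 of the 43 GRAS and gibberellin-regulated genes left out by it that had any value above 0, in M21 against NC82, 4 in G27 against NC82 and 4 in M21 against G27, or 6.98%, 9.30% and 9.30%. In that fit 16.0%, 9.17% and 7.12% of all 49699 genes were called, and 5.42%, 3.39% and 2.28% of its 16511 genes under the filter. The filter asks for a third-highest value of 1, and the nearest genes inside it, Nitab4.5_0000192g0090 and Nitab4.5_0004707g0070, had 1.06 and 1.09, while the nearest outside, Nitab4.5_0003620g0010 and Nitab4.5_0004639g0010, had 0.97 and 0.96.

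Few other genes of the gibberellin pathway could be picked out by their descriptions. Patterns for gibberellin oxidases, which make and inactivate the hormone, and for kaurene synthesis matched 0 genes. The alpha/beta hydrolase fold-3 family holds the GID1 receptors together with many carboxylesterases that cannot be separated here. Of its 35 tested genes, 6 rose and 1 fell in M21 against NC82 (20%, against 24.3% of all tested genes), with a median log2 change of 0.08. In G27 against NC82, 1 rose and 1 fell (5.71%, against 13.9%), and in M21 against G27, 3 were higher and 0 lower (8.57%, against 11.9%).

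Named after their values were seen, the fold-3 gene that fell in M21 was Nitab4.5_0013883g0010, at 0.44 ± 0.113 in M21 and 1.26 ± 0.375 in NC82. The one that rose in G27 was Nitab4.5_0009403g0030, at 2.12 ± 0.0611 in G27 and 0.927 ± 0.24 in NC82 (log2 change 0.70, limma adjusted p = 0.0024). The one that fell in G27 was Nitab4.5_0000180g0060, at 0.133 ± 0.231 in G27 and 2.08 ± 0.472 in NC82 (log2 change -1.45, limma adjusted p = 2.2e-04), and it was higher in M21, at 1.57 ± 0.381, than in G27. Nitab4.5_0002436g0090 was also higher in M21, at 34.1 ± 1.45, than in G27, at 24.4 ± 0.451 (SD, n = 3 each), as was Nitab4.5_0000295g0090, at 3.51 ± 0.216 against 2.14 ± 0.522. Nitab4.5_0013883g0010 in M21 and Nitab4.5_0000180g0060 in G27 lay under the filter value in every library. They passed the filter only through groups where they are higher, so their calls and the family counts that include them carry that selection.

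BZR1-type factors act in brassinosteroid response and are bound by DELLA proteins in Arabidopsis. Of 15 tested, 1 rose and 3 fell in M21 against NC82 (26.7%, against 24.3%), 0 rose and 1 fell in G27 against NC82 (6.67%, against 13.9%), and 0 were higher and 1 lower in M21 against G27 (6.67%, against 11.9%). The genes below were named after their values were seen. Nitab4.5_0000583g0040, whose description also names a glycoside hydrolase family 14 domain, rose in M21 to 11.1 ± 0.326, against 8.96 ± 0.964 in NC82 (limma adjusted p = 0.034). Nitab4.5_0009293g0010 fell to 16.4 ± 1.46 in M21, against 20.1 ± 0.844 in NC82 (limma adjusted p = 0.032). Nitab4.5_0000788g0010 fell to 0.857 ± 0.178 in M21, against 1.89 ± 0.212 in NC82 (limma adjusted p = 0.0036). It was also lower than in G27, at 1.58 ± 0.316 (limma adjusted p = 0.032). Nitab4.5_0002458g0020 fell to 1.43 ± 0.0971 in M21 and to 0.95 ± 0.223 in G27, against 2.13 ± 0.272 in NC82 (SD, n = 3 each). Its limma adjusted p was 0.043 in M21 and 0.0022 in G27. Whether the fold-3 and BZR1-type calls hold under the alternatives was not tested.

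The 164 genes matched by spelling alone were 104 with a grasp fold, 56 with integrase in a domain name, of which 54 are C2H2 zinc finger proteins and 2 TACO1-like regulators, and 4 with a foie gras domain. Of them, 20 rose and 16 fell in M21 against NC82 (22%, against 24.3% of all tested genes), 14 rose and 14 fell in G27 against NC82 (17.1%, against 13.9%), and 9 were higher and 12 lower in M21 against G27 (12.8%, against 11.9%). With these included, the 225 genes of the word rule had 25 up and 22 down, 19 up and 17 down, and 13 higher and 15 lower, or 20.9%, 16% and 12.4%, in the same order of comparisons and beside the same shares of all genes. Some genes called lower in M21, among them the zinc finger genes Nitab4.5_0000521g0010, Nitab4.5_0005788g0010 and Nitab4.5_0004282g0040, stayed under 1 in every M21 library. They passed the filter only through groups where they are higher, so the counts of the 164 and of the 225 genes carry that selection. None of the 4 foie gras genes was called by limma, and 0 of them had an unadjusted p under 0.05 in any comparison. Such a p was found for 11924, 8744 and 8438 of the 33188 tested genes in the same order of comparisons.

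The widest change of the 225 was that of a C2H2 zinc finger gene, Nitab4.5_0006492g0010, named here after its values were seen, as are the genes that follow. It stood at 36.62, 45.52 and 32.89 in M21, 31.24, 34.13 and 35.4 in G27, and 6.34, 5.58 and 4.65 in NC82. Both lines were far above NC82 and overlapped with each other. It rose by 2.59 in M21 (SE 0.125, limma adjusted p = 7.0e-07) and by 2.41 in G27 (SE 0.125, limma adjusted p = 1.4e-06). Glutamine synthetase, which fixes ammonium, has a beta-grasp domain. Its domains are named for 10 tested genes, among them Nitab4.5_0000132g0480 and Nitab4.5_0005208g0050, whose descriptions also name an amidohydrolase. The 10 genes did not move one way. Of them, 4 rose and 2 fell in M21 against NC82, 2 rose and 1 fell in G27 against NC82, and 0 were higher and 1 lower in M21 against G27. Of all tested genes, 24.3%, 13.9% and 11.9% were called in the same order. Nitab4.5_0001650g0160 averaged 78.6 ± 6.22 in M21, 66.3 ± 15.2 in G27 and 42.4 ± 5.35 in NC82, and Nitab4.5_0009806g0020 averaged 65.6 ± 3.08, 55.4 ± 11.3 and 36.2 ± 6 in the same order (SD, n = 3 each). Both were called in both lines, with limma adjusted p of 0.0012 and 0.0014 in M21 and 0.014 and 0.017 in G27, and the G27 call of the second was lost without NC82 replicate 1 (0.052). The abundant Nitab4.5_0000059g0010 fell to 297.4 ± 25.9 in M21, against 369.6 ± 44.9 in NC82 (limma adjusted p = 0.044, with a call lost without any M21 replicate, G27 replicate 3 or NC82 replicate 2 or 3, at 0.057 to 0.16), and averaged 345.8 ± 22.9 in G27 (SD, n = 3 each), not called. The low Nitab4.5_0007727g0010 fell in both lines, to 0.45 ± 0.106 in M21 and 1.1 ± 0.293 in G27, against 2.01 ± 0.167 in NC82 (limma adjusted p = 1.8e-04 and 0.018), but it passed the filter only through G27 and NC82, and the G27 call was lost without G27 replicate 3 or NC82 replicate 1 or 3 (0.052 to 0.072). That G27 call was also lost without the 3 libraries that stand apart (limma adjusted p = 0.057).

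The binding domain of pyruvate phosphate dikinase, an ATP-grasp enzyme that makes phosphoenolpyruvate, is named for 6 tested genes, a set taken after its values were seen. In M21 against G27, 4 of the 6 were called higher and 0 lower, against 5.47% higher and 6.40% lower among all tested genes. Of the 4, Nitab4.5_0010477g0010 and Nitab4.5_0000059g0230 also name domains of phosphoenolpyruvate-using enzymes. Nitab4.5_0001693g0060 instead names a carbohydrate binding module beside the binding domain. Nitab4.5_0010477g0010 stood at 26.02, 25.09 and 23.76 in M21 and 8.28, 12.24 and 8.36 in G27, with 13.39, 20.52 and 21.59 in NC82. M21 lay above NC82 and G27 below it without overlap. M21 exceeded G27 by 1.31 (SE 0.175, limma adjusted p = 0.0011), and G27 was lower than NC82 by -0.87 (limma adjusted p = 0.0066), while M21 against NC82 was not called (limma adjusted p = 0.095). Nitab4.5_0007943g0010, whose description holds only the binding domain that starch water dikinases also carry, averaged 241.5 ± 21 in M21, 182.8 ± 13.8 in G27 and 157 ± 5.69 in NC82 (SD, n = 3 each). It rose by 0.62 in M21 against NC82 (limma adjusted p = 3.0e-04) and exceeded G27 by 0.40 (limma adjusted p = 0.0093).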

How the data were processed

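The authors deposited 1 table of normalized expression signal per gene and library, with no unit in its header. HISAT2, RSEM and StringTie are named in the submitters' processing notes without version or role. The gene identifiers carry the prefix Nitab4.5, while the build used for alignment and the strand setting were not given in the sources used here. In the table, 3 columns of group means were not used. Gene names were given for 0 genes, and 0 identifiers matched the RefSeq table, so identifiers and domain descriptions stand in for names, and no sequence or coordinate is printed. Libraries were grouped by their labels, which do not say whether replicates are separate plants, so p-values measure only the spread between these samples, which may be technical.

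Genes reaching 1 in 3 or more of the 9 libraries were tested. After adding a pseudocount of 1, log2 values of all 9 libraries were fitted with limma 3.58.1 in R 4.3.3, its moderated variances following a trend on the mean, with two-sided p adjusted by Benjamini-Hochberg over all 33188 genes. Log2 changes of low genes are therefore smaller than the ratio of their means. Read counts were not given, so relative depths came from the commonest ratio between libraries among genes of very few reads (65 to 125 genes per library, NC82 replicate 1 set at 1), and no counting interval can be given. Plots used matplotlib 3.10.9 and numpy 2.4.6 under Python 3.11.15.

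Members, lists and tests were chosen with earlier results of these data known, and the split of the word matches was made after their descriptions had been read. Named genes were every gene of a class of up to 5 members and, per class and comparison, up to 5 called genes in each direction and the 3 highest; the rule was applied to the DELLA, GRAS and gibberellin-regulated classes, and other genes are marked as named after their values were seen. Alternatives were another pseudocount of 0.1, no filter, median-ratio scaling, a replicate block, pairwise fits, no mean trend, and leaving out libraries.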

Additional observations from a re-analysis of the deposited data

Results flagged for a closer look

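The ATP-grasp enzyme Nitab4.5_0000059g0230, described as a pyruvate phosphate dikinase, was the member of the word rule called in opposite directions in M21 and G27 against the shared NC82 libraries. It stood at 7.33, 5.93 and 7.91 in M21, 3.28, 3.29 and 2.73 in G27, and 4.18, 4.91 and 4.29 in NC82, with no overlap among the groups. The difference of M21 minus G27 was 0.97 on the log2 scale (SE 0.11, limma adjusted p = 4.6e-04). The rise in M21 was 0.56 (limma adjusted p = 0.0038) and the change in G27 was -0.41 (limma adjusted p = 0.028). The G27 call was lost without G27 replicate 3 or NC82 replicate 2 or 3 (limma adjusted p = 0.062 to 0.12), with a replicate block (0.05 after rounding), without the filter (0.056) and without the 3 libraries that stand apart (0.051). The opposite directions against NC82 therefore rest on a call near the threshold. The difference between the lines held with any 1 library left out (up to 0.0037).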

How the results depend on the processing

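None of the 43 calls of named genes that were recomputed changed sign under any alternative run, and 0 of the DELLA genes were called under any. Calls of the fold-3 and BZR1-type genes were not among the 43. Of the 43 calls, 14 were lost without the 3 libraries that stand apart. Without the 3 libraries that stand apart, a setting that leaves 2 per group, the 61 genes had 3 called lower in M21 against NC82, 3 higher in G27 against NC82, and 2 higher and 1 lower in M21 against G27. The 225 genes then had 12 called higher in G27 against NC82, and 6 higher and 6 lower in M21 against G27. With 1 library left out at a time, the 61 genes had 4 to 7 higher and 4 to 7 lower in M21 against NC82, 4 to 5 higher and 1 to 3 lower in G27 against NC82, and 1 to 5 higher and 2 to 4 lower in M21 against G27. The 225 genes had 20 to 28 higher and 15 to 24 lower, 14 to 19 higher and 9 to 17 lower, and 5 to 14 higher and 7 to 16 lower in the same comparisons. Of the 225, the number lower in G27 against NC82 was 9 to 10 without G27 replicate 3 or NC82 replicate 2 or 3. The number higher in M21 against G27 was 5 to 6 without M21 replicate 1 or 3 or G27 replicate 3, and the number lower there was 7 to 9 without any M21 replicate or G27 replicate 1 or 2. The 61-gene counts, the split of the word matches and the genes under the filter were added after seeing the data.

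Same-numbered libraries did not deviate together throughout (correlations of -0.21 to 0.34), so replicate numbers were not taken as pairs. With a replicate block the 61 genes had 5 higher and 6 lower, 5 higher and 3 lower, and 4 higher and 4 lower, and 2 of the 43 calls were lost. Median-ratio scaling moved the median of all genes by at most -0.046. Read counts are not in the table used here, so no counting error can be given for values near 1. The causes of the lost calls were not tested.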

Other observations

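Some genes under the filter had low values that differed between groups. They were read in a fit without the filter over 49699 genes and named after their values were seen. The GRAS gene Nitab4.5_0005135g0010 stood at 0.62, 0.27 and 0.36 in M21, 0.84, 0.99 and 0.82 in G27, and 0.24, 0.2 and 0.29 in NC82, with G27 above both other groups. Its log2 change in G27 against NC82 was 0.60 (limma adjusted p = 0.0039), and that in M21 against G27 was -0.42 (limma adjusted p = 0.029). Another GRAS gene, Nitab4.5_0000193g0120, stood at 0.38, 0.24 and 0.47 in M21, 0.72, 0.99 and 0.61 in G27, and 0.18, 0.26 and 0.19 in NC82, also with G27 highest (0.55 against NC82, limma adjusted p = 0.0065). The gibberellin-regulated gene Nitab4.5_0005722g0080 was listed at 0 in all M21 libraries, at 0.17, 0.19 and 0.18 in G27, and at 0.33, 0.27 and 0.35 in NC82.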
